A study of Mus musculus with 4 samples.

Results

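Chemokines are small secreted proteins that draw leukocytes into tissues, and their receptors are G protein-coupled receptors on the leukocytes that respond. This account follows 35 mouse genes of this family, 27 ligands and 8 receptors, taken by name from a list drawn up for the purpose, out of 18820 genes read on the arrays. Each gene is read by the probe set with the highest mean over the 4 arrays among those assigned to it alone. A low-signal filter was set at a mean log2 level of 5.45, the 40th percentile over all genes. It was passed by 24 of the 35 genes and by 11292 genes in all, which were tested.

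The tissue was epididymal fat, the visceral fat pad attached to the epididymis. Below, WT stands for wild type and KO for CD1d-/-. One array held WT mice on a low-fat diet (10 kcal% fat), 1 array WT mice on a high-fat diet (45 kcal% fat), and 2 arrays CD1d-/- mice fed low-fat (KO array 1 and KO array 2). All mice ate standard chow until an age of 10 to 11 weeks and the study diet for the next 18 to 19 weeks, and the null allele was on a C57BL/6J background reached in 10 to 12 generations. RNA of 4 to 6 mice made up each pool, so a wild type value is 1 pool with no replicate. Nothing in the labels tells if the KO arrays came from separate pools, so the p-values reflect the spread of these arrays alone, which may be technical. High-fat feeding of KO mice is not covered. CD1d presents lipids to natural killer T (NKT) cells, which CD1d-/- mice lack, and the series asks what these cells do in the fat of lean mice.

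In adipose tissue the chemokine system is best known through CCL2 and its receptor CCR2, which bring monocytes into the fat of obese animals, where they become macrophages. The CXCL16 and CXCR6 pair guides NKT and T cells, the CXCL9 and CXCL10 ligands of CXCR3 are induced by interferon, and CCL11 and CCL24 attract eosinophils through CCR3. CC, CXC and CX3C name the spacing of the first cysteines of the ligands.

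The labels were checked on Cd1d1, the disrupted gene, which was at a log2 intensity of 11.80 on both WT arrays and at 3.74 and 3.98 on KO arrays 1 and 2. The defining fat cell genes were present on all 4 arrays, with Adipoq between 13.03 and 13.19 and Plin1 between 12.25 and 12.54. The array medians over tested genes were 7.85 for WT low-fat, 7.92 for WT high-fat, 7.65 for KO array 1 and 7.84 for KO array 2. Over these tested genes the median of KO array 1 lay 0.21 below that of WT low-fat and 0.19 below that of KO array 2. Over all 35556 probe sets, the median intensities ran from 51.1 to 52.2, with KO array 1 highest. Some of the counts below are also given after each array was centred on its median. The summed intensity of 12 epididymal genes was 16374 on WT low-fat, 195 on WT high-fat, 306 on KO array 1 and 1815 on KO array 2. The part of this epididymal RNA in differences from WT low-fat was not tested. All values below are log2 intensities, and differences are log2 differences unless given as a fold. A level of one gene cannot be set against that of another, because probe sets differ in brightness.

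**Figure D1:**
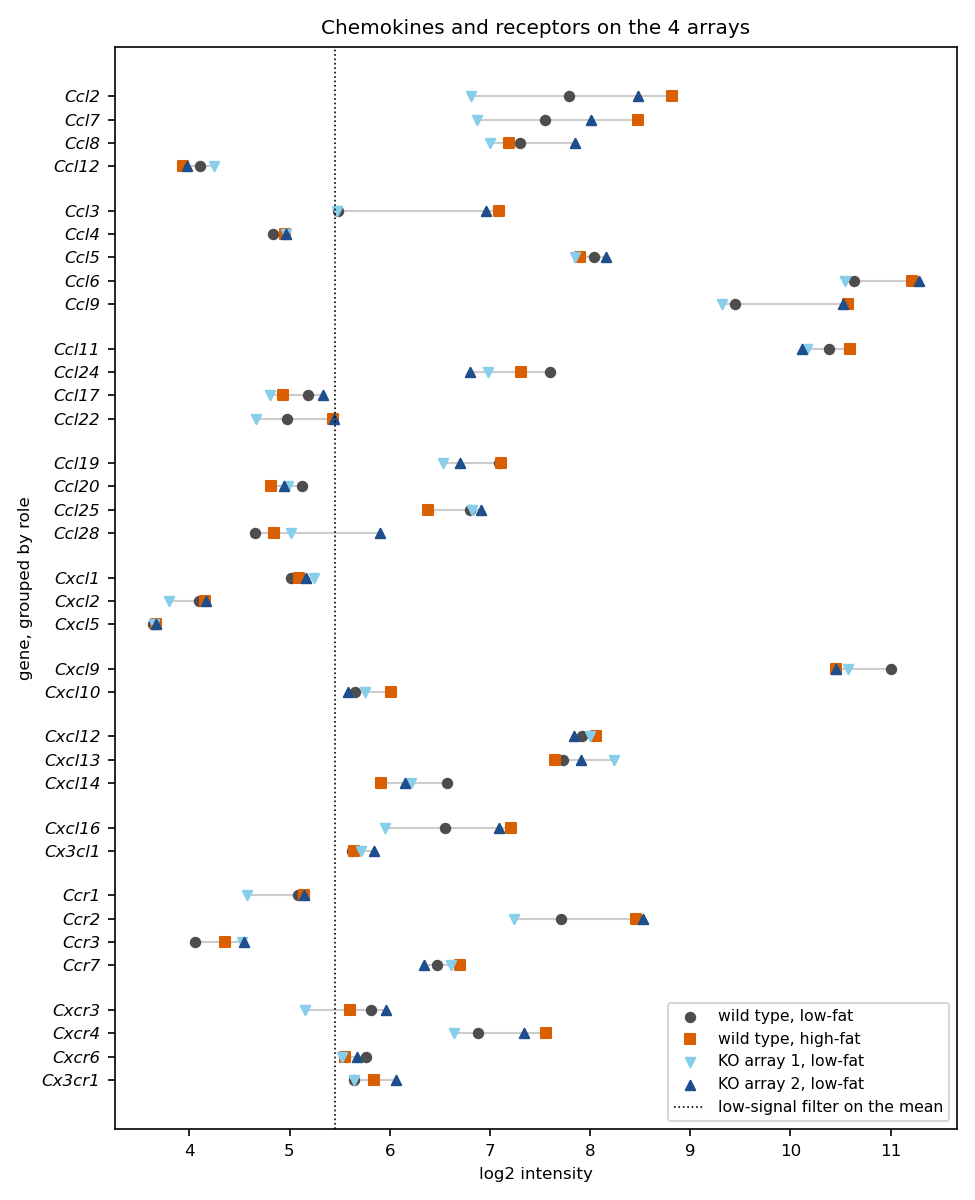
Log2 intensity (horizontal axis) of the 35 chemokine and receptor genes (vertical axis, grouped by role) on the 4 arrays, 1 symbol per array, with the range joined by a line and the low-signal filter of 5.45 dotted. Ccl2, Ccl7, Ccl3, Ccl9, Cxcl16, Ccr2 and Cxcr4 have WT high-fat and KO array 2 to the right of the other arrays, while Cxcl12, Cx3cl1 and Cxcr6 have all 4 close together.

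The first question was which of these genes differed between the diets in wild type fat. Of the 24 members above the filter, 7 were at least 1.5-fold higher on WT high-fat (Ccl2, Ccl7, Ccl3, Ccl9, Cxcl16, Ccr2 and Cxcr4), against 7.72% of all tested genes. Over all 35 members the count was also 7, against 5.38% of all 18820 genes. After centring, the same 7 of 24 were counted, against 6.12% of tested genes. Cxcl14 was the 1 member as far below on this diet, against 3.82% of tested genes. The median difference of the 24 members was 0.17, and that of all tested genes 0.05. With 1 array per diet there is no test of any of these differences, and they are given by size.

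The same 7 genes were set against the difference between the KO arrays, which shares no array with the diet comparison. KO array 2 was at least 1.5-fold above KO array 1 for 10 of the 24 members, against 14.8% of tested genes, and for 12 of 35 members, against 9.69% of all genes. After centring, the count was 8 of 24, against 8% of tested genes, with Ccl6 and Cxcr4 no longer counted. No member, 0 of 24, was at least 1.5-fold lower on KO array 2, against 4.45% of tested genes. All 7 genes higher on the high-fat diet were among the 10, so 7 of 24 members were at least 1.5-fold higher in both differences, against 6.02% of tested genes. Most of the tested genes higher with diet were also higher in the KO pair, 680 of 872, so this overlap is shared by the table as a whole. After centring, 6 of 24 were, against 4.26%, with Cxcr4 lost. The lists and members were picked with earlier results of these arrays known, so these counts describe the arrays and are no independent evidence.

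**Figure D2:**
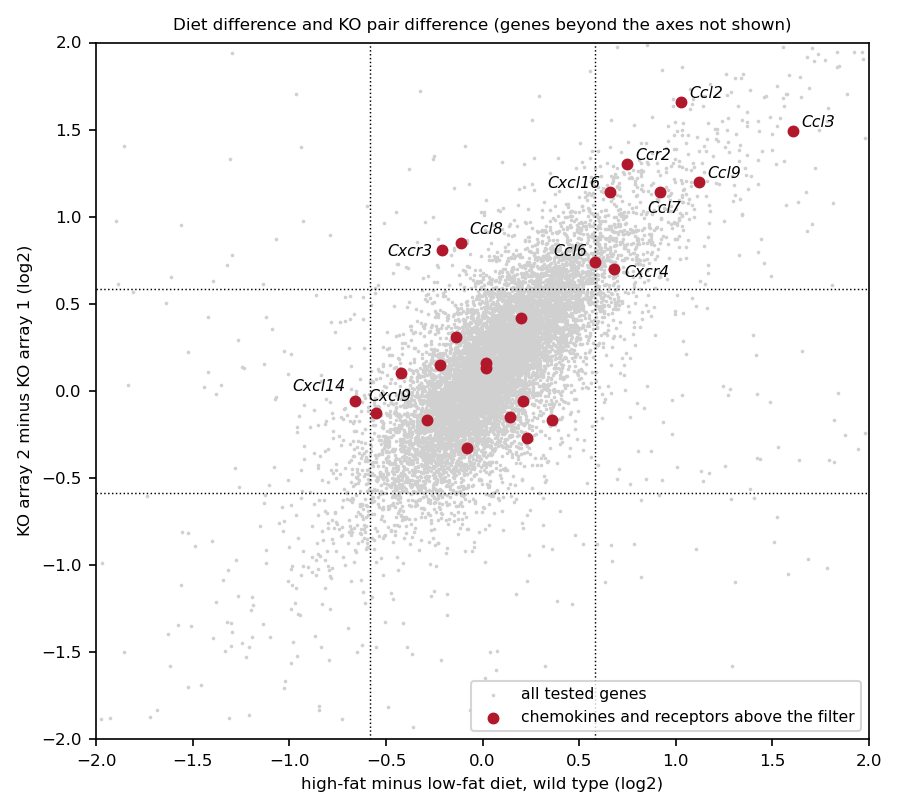
High-fat minus low-fat difference in wild type fat (horizontal axis, log2) against KO array 2 minus KO array 1 (vertical axis, log2) for the 24 members above the filter (red, named where large) and all tested genes (grey), with the 1.5-fold limits dotted. The 7 members higher in both lie at the upper right, and Ccl8 and Cxcr3 lie high on the vertical axis alone.

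Of the 4 monocyte-attracting CC ligands, 2 were at least 1.5-fold higher with diet, Ccl2 and Ccl7. Ccl2, the main monocyte chemoattractant of inflamed fat, was at 7.79 on WT low-fat, 8.82 on WT high-fat, 6.81 on KO array 1 and 8.48 on KO array 2. Its diet difference of 1.03 is a 2.04-fold higher intensity, and KO array 2 was 3.17-fold above KO array 1, the widest gap of the KO pair among the members. Ccl7, a close relative of Ccl2 that also acts on CCR2, was at 7.55, 8.48, 6.87 and 8.01 in the same order of arrays, 1.90-fold higher on the high-fat diet. Both genes had their lowest value on KO array 1 and their highest on WT high-fat.

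Ccl8, another ligand of the same gene group, did not share the diet difference. It was at 7.30 on WT low-fat, 7.19 on WT high-fat, 7.00 on KO array 1 and 7.85 on KO array 2. Its diet difference was −0.11, while KO array 2 was 1.80-fold above KO array 1. Ccl12, the mouse gene next to it, lay near the bottom of the scale on every array, between 3.94 and 4.25.

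The inflammatory CC ligands that macrophages make when activated gave the largest diet difference of the family. Ccl3 was at 5.48 on WT low-fat, 7.09 on WT high-fat, 5.47 on KO array 1 and 6.96 on KO array 2. It was 3.05-fold higher on the high-fat diet and 2.80-fold higher on KO array 2 than on KO array 1. Ccl9, a ligand of CCR1 made by myeloid cells, was at 9.45, 10.57, 9.32 and 10.52 in the same order, 2.17-fold higher on the high-fat diet. For both genes WT high-fat and KO array 2 lay close together and clear of the other arrays.

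Ccl6, another ligand of CCR1, had the same arrays high with smaller steps, at 10.63 on WT low-fat, 11.21 on WT high-fat, 10.54 on KO array 1 and 11.28 on KO array 2. Its diet difference of 0.58 was just short of 1.5-fold. Ccl5, a T cell and monocyte attractant made largely by lymphocytes, was flat at 8.04, 7.90, 7.85 and 8.16. Ccl4, a neighbour and relative of Ccl3, was below the filter on every array, between 4.84 and 4.96.

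The stretches before the start sites of Ccl3 and Ccl9 are shown because these genes differed most with diet among the members with a RefSeq promoter. They are the 250 bases upstream of the transcript start in RefSeq, build GRCm38.p6, with capitals marking matches to 5 motifs searched on both strands. The motifs were that of NF-kappaB, GAAANNGAAA of the interferon-stimulated response element (ISRE), TTCNNNGAA of STAT factors (GAS), TGANTCA of AP-1 and TATAAA of the TATA box, and matches of one motif that overlap count as 1 place. The Ccl3 window is chr11:83649379-83649628 and the Ccl9 window chr11:83578637-83578886, both on the minus strand, and each line reads 5′ to 3′.
Ccl3: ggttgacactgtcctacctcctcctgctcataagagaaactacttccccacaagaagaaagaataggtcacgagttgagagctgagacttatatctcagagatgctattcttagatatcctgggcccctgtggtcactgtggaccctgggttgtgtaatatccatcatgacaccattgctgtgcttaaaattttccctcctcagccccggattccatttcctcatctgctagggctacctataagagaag
Ccl9: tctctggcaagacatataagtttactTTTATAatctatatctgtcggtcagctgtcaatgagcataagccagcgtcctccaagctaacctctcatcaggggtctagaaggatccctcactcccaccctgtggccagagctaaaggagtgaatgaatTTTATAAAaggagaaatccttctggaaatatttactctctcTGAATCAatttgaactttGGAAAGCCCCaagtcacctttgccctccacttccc
The Ccl9 window held an NF-kappaB match, GGAAAGCCCC, from 35 to 26 bases before the start, an AP-1 match from 53 to 47 bases before it and 2 TATAAA places. The Ccl3 window held 0 matches to the 5 motifs. In the upstream windows of all 32851 RefSeq promoters, 7.25% held the NF-kappaB motif, 2.98% the ISRE, 7.02% the GAS, 6.75% the AP-1 motif and 12.4% the TATA box. Of the 26 members with such a window, 7 held the NF-kappaB motif, 3 the ISRE, 2 the GAS, 3 the AP-1 motif and 8 the TATA box. A match is a description of the letters only.

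On chromosome 11, where 12 members lie, these ligand genes follow each other as Ccl2, Ccl7, Ccl11, Ccl12, Ccl8, Ccl5, Ccl9, Ccl6, Ccl3 and Ccl4. The neighbours Ccl2 and Ccl7 were at least 1.5-fold higher with diet, the next genes from Ccl11 to Ccl5 were not, and Ccl9 and Ccl3 were, with Ccl6 between them just short of it. Ccl11 lies between Ccl7 (0.92) and Ccl8 (−0.11), with a diet difference of 0.21, and Ccl5 (−0.14) lies before Ccl9 (1.12). Gene order was taken from RefSeq, build GRCm38.p6, and the array's own build is not given in the sources used here.

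**Figure D3:**
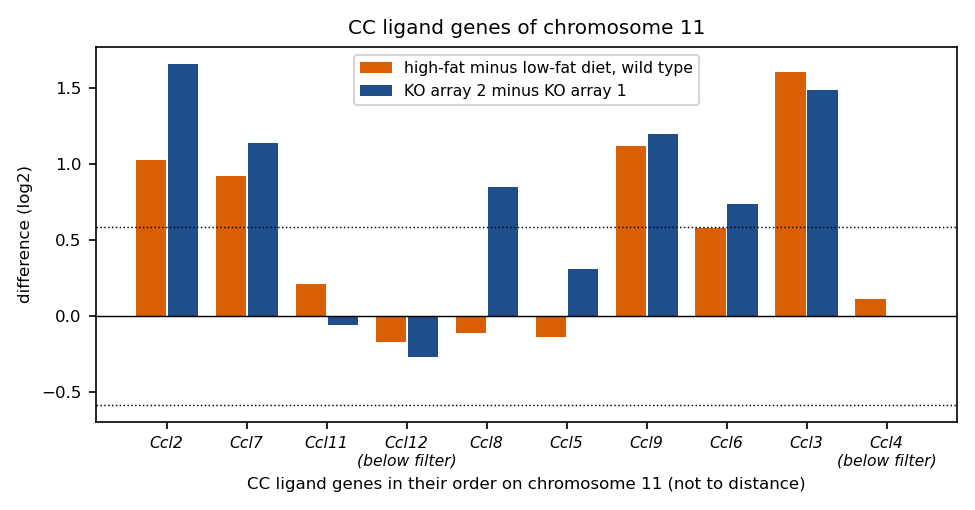
Diet difference in wild type fat (orange bars) and KO array 2 minus KO array 1 (blue bars), in log2 on the vertical axis, for the CC ligand genes in their order on chromosome 11, with the 1.5-fold limits dotted. Both bars are tall at Ccl2, Ccl7, Ccl9 and Ccl3, both are short at Ccl11, Ccl12, Ccl5 and Ccl4, and at Ccl8 the blue bar alone is tall.

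Of the eosinophil and type 2 ligands, Ccl11 and Ccl24 passed the filter, and 0 of these 2 were at least 1.5-fold higher with diet or in the KO pair. Ccl11 (eotaxin-1), made by stromal cells, was at 10.38 on WT low-fat, 10.59 on WT high-fat, 10.16 on KO array 1 and 10.11 on KO array 2. Ccl24 (eotaxin-2), made by alternatively activated macrophages, was at 7.60, 7.31, 6.98 and 6.80 in the same order, with both KO arrays below both WT arrays. Ccl17 and Ccl22, the ligands of CCR4, were below the filter on every array, with Ccl17 between 4.81 and 5.33. Ccl22 was at 4.97 on WT low-fat, 5.43 on WT high-fat, 4.67 on KO array 1 and 5.44 on KO array 2. Its diet difference of 0.46 was under 1.5-fold, and KO array 2 was 1.70-fold above KO array 1. With all 4 values below the filter, these differences could not be read. The eosinophil markers were also low: 0 of 5 measured, Ccr3 among them, passed the filter, and their summed intensity ran from 97.6 to 112 over the arrays. Epx was between 3.57 and 3.88, while Siglecf lay close to the filter, between 5.26 on WT low-fat and 5.5 on KO array 2.

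Among the homeostatic and mucosal CC ligands, Ccl19, which guides CCR7-bearing cells to lymphoid tissue, was at 7.09 on WT low-fat, 7.11 on WT high-fat, 6.53 on KO array 1 and 6.70 on KO array 2. Both KO arrays were below both WT arrays, by differences of −0.56 and −0.40 from WT low-fat. Ccl19 was read by 5 probe sets that gave nearly the same values, and it has near-identical copies in the mouse genome that the array may not separate. Ccl25, a thymus and gut ligand, was at 6.80, 6.38, 6.82 and 6.91 in the same order of arrays, and its other probe set at 6.00, 5.93, 5.85 and 5.67 did not share the dip on the high-fat array. Ccl28, a ligand of mucosal surfaces, passed 5.45 on KO array 2 alone, at 5.90 against 4.66 on WT low-fat, 4.85 on WT high-fat and 5.01 on KO array 1. Ccl20, the ligand of CCR6, was between 4.82 and 5.12.

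Among the members, the ligands that attract neutrophils through CXCR2 were not above the filter on any array. Cxcl1 was between 5.01 and 5.24, Cxcl2 between 3.80 and 4.17 and Cxcl5 between 3.64 and 3.67. At these levels a difference could not be read.

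Of the interferon-induced CXC ligands, Cxcl9 was highest on WT low-fat. It was at 11.00 there, 10.45 on WT high-fat, 10.57 on KO array 1 and 10.45 on KO array 2, so the other arrays lay close together. Its diet difference of −0.55 passed 1.5-fold after centring, when 2 of 24 members (Cxcl9 and Cxcl14) were lower, against 4.92% of tested genes. The epididymal genes were likewise highest on WT low-fat, as given above, and their part in the values of Cxcl9, Cxcl14 and Ccl24 was not tested. Cxcl10, which shares the receptor CXCR3, was at 5.65, 6.01, 5.75 and 5.58 in the same order and did not follow Cxcl9.

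The upstream windows of these 2 genes are shown because they share a receptor and an inducer, lie near each other on chromosome 5 and had opposite diet differences, −0.55 and 0.36. Neither difference reached 1.5-fold before centring, each rests on 1 array per diet, and Cxcl10 lay just above the filter. The part of the motifs in these differences was not tested. Motifs and capitals are as above, and both are on the minus strand of GRCm38.p6, at chr5:92328080-92328329 for Cxcl9 and chr5:92348890-92349139 for Cxcl10.
Cxcl9: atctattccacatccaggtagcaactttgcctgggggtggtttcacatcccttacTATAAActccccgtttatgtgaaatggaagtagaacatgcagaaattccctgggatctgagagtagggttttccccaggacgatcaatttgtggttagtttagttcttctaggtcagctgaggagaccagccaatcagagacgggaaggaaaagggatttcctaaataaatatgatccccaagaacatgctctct
Cxcl10: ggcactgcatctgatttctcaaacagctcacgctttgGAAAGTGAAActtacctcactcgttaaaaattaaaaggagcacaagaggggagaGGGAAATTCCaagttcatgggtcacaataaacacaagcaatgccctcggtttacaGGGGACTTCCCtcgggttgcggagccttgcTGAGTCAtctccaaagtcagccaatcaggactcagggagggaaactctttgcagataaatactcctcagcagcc
The Cxcl10 window held 2 NF-kappaB places, GGGAAATTCC from 159 to 150 and GGGGACTTCCC from 104 to 94 bases before the start. It also held an ISRE match, GAAAGTGAAA, from 213 to 204 bases before the start and an AP-1 match from 74 to 68. The Cxcl9 window held a TATAAA match from 195 to 190 bases before the start and none of the other 4 motifs.

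Of the homeostatic CXC ligands, Cxcl12 and Cxcl13 were within 1.5-fold over the arrays. Cxcl12, the stromal ligand of CXCR4, was at 7.92 on WT low-fat, 8.06 on WT high-fat, 8.00 on KO array 1 and 7.84 on KO array 2. Cxcl13, the B cell attractant of serous fat and follicles, was at 7.73, 7.65, 8.24 and 7.91 in the same order, highest on KO array 1. Cxcl14, made by epithelial and stromal cells, was at 6.57, 5.91, 6.21 and 6.15, a 1.58-fold lower intensity on the high-fat diet, with the KO arrays between the wild type arrays.

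The transmembrane ligands are held on the cell surface until they are shed. Cxcl16, the ligand of the NKT cell receptor CXCR6, was at 6.55 on WT low-fat, 7.21 on WT high-fat, 5.95 on KO array 1 and 7.09 on KO array 2. It was 1.58-fold higher on the high-fat diet and 2.21-fold higher on KO array 2 than on KO array 1. Cx3cl1 (fractalkine), the ligand of CX3CR1, was flat at 5.62, 5.64, 5.71 and 5.84, just above the filter.

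Among the receptors, Ccr2 and Cxcr4 were higher with the high-fat diet. Ccr2, the receptor of inflammatory monocytes, was at 7.71 on WT low-fat, 8.46 on WT high-fat, 7.24 on KO array 1 and 8.53 on KO array 2. It was 1.68-fold higher on the high-fat diet, in the same direction as its ligands Ccl2 and Ccl7. Cxcr4, carried by most leukocytes, was at 6.88, 7.56, 6.64 and 7.34 in the same order, 1.60-fold higher on the high-fat diet, while its ligand Cxcl12 was not.

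The receptors of T, NKT and NK cells did not share this diet difference. Cxcr6, which marks NKT and resident T cells, was at 5.76 on WT low-fat, 5.55 on WT high-fat, 5.52 on KO array 1 and 5.67 on KO array 2. Its diet difference was −0.22, beside 0.66 for its ligand Cxcl16, and all 4 values lay near the filter. Cxcr3, carried by activated T and NK cells, was at 5.81, 5.60, 5.15 and 5.96 in the same order. It was lowest on KO array 1, with KO array 2 1.75-fold above it. Of 16 markers of T, NKT and NK cells, 15 were measured and 6 passed the filter. All 15 measured, with those below the filter, had a summed intensity of 732, 634, 577 and 656 on these arrays. Cd3e, a part of the T cell receptor complex, was at 6.39, 6.04, 5.95 and 6.19, and the NK cell markers Klrb1c and Ncr1 were below the filter on all arrays.

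Ccr7, which takes dendritic and T cells to lymph nodes, was at 6.47 on WT low-fat, 6.70 on WT high-fat, 6.61 on KO array 1 and 6.34 on KO array 2. Cx3cr1, the fractalkine receptor of monocytes and macrophages, was at 5.64, 5.84, 5.64 and 6.06 in the same order. Ccr1 was below the filter on every array, between 4.58 and 5.14, and so was the eosinophil receptor Ccr3, between 4.06 and 4.55.

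The second question was how the family differed between CD1d-/- and wild type fat on the low-fat diet. No member passed the test. In limma, with Benjamini-Hochberg adjustment over all tested genes, 0 of 24 members had an adjusted p under 0.05, against 0.0443% of tested genes, and each had an adjusted p = 1. No member, 0 of 24, had an unadjusted p under 0.05 in limma either, against 0.815% of tested genes, and the smallest was 0.0661, for Ccl24. The differences of the KO mean from wild type ran from −0.71 for Ccl24 to 0.73 for Ccl3, with standard errors from 0.31 to 0.68. The 95% intervals were wide, from −1.84 to 1.55 for Ccl2 and from −0.77 to 0.78 for Cxcl12, so a difference of 1.5-fold in either direction lay inside both. A p that misses the threshold here does not show that KO and wild type were alike.

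The KO arrays lay on opposite sides of WT low-fat for 14 of the 24 members, beside 49.7% of all tested genes. Ccl2, Ccl7, Cxcl16 and Cxcr3 were at least 1.5-fold below wild type on KO array 1, as was Ccl24, which makes 5 of 24 against 5.02% of tested genes. After centring, Ccl2 alone was, 1 of 24 against 1.51%, with a difference of −0.77. On KO array 2, 5 of 24 members were at least 1.5-fold above wild type (Ccl2, Ccl3, Ccl6, Ccl9 and Ccr2), against 5.54% of tested genes. On KO array 1, 0 of 24 were as far above wild type, against 1.93% of tested genes. After centring, Cxcl13 was as far above it on that array, with a difference of 0.71. With Ccl2 below, 2 of 24 members were then at least 1.5-fold from wild type there, against 5.22% of tested genes. On KO array 2, 1 of 24 (Ccl24) was as far below wild type, against 4.6%. The SD of the KO pair was 1.18 for Ccl2, 1.05 for Ccl3, 0.92 for Ccr2 and 0.85 for Ccl9, with a median over the 24 members of 0.23.

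Ccl24 was the 1 member at least 1.5-fold lower on both KO arrays, against 0.77% of tested genes, and 0 of 24 were at least 1.5-fold higher on both, against 0.584%. Its KO mean of 6.89 ± 0.12 (SD, n = 2) gave a difference of −0.71 from WT low-fat (standard error 0.31, 95% interval −1.49 to 0.07). In limma its adjusted p = 1. After centring its difference on KO array 1 was −0.42, so 0 of 24 members were then at least 1.5-fold lower on both KO arrays, against 0.443% of tested genes. Cxcl9 was at a KO mean of 10.51 ± 0.09 (SD, n = 2), a difference of −0.49 (95% interval −1.26 to 0.28), and Ccl19 at 6.62 ± 0.11, a difference of −0.48 (95% interval −1.25 to 0.30). Both were lower on each KO array and neither passed the test.

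The CXCL16 and CXCR6 pair, through which NKT cells are held in tissue, gave no difference past the test. Cxcr6 differed by −0.17 between KO and wild type (95% interval −0.95 to 0.60), and Cxcl16 by −0.03 (95% interval −1.32 to 1.26), with KO array 1 at −0.60 and KO array 2 at 0.54 from wild type.

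**Figure D4:**
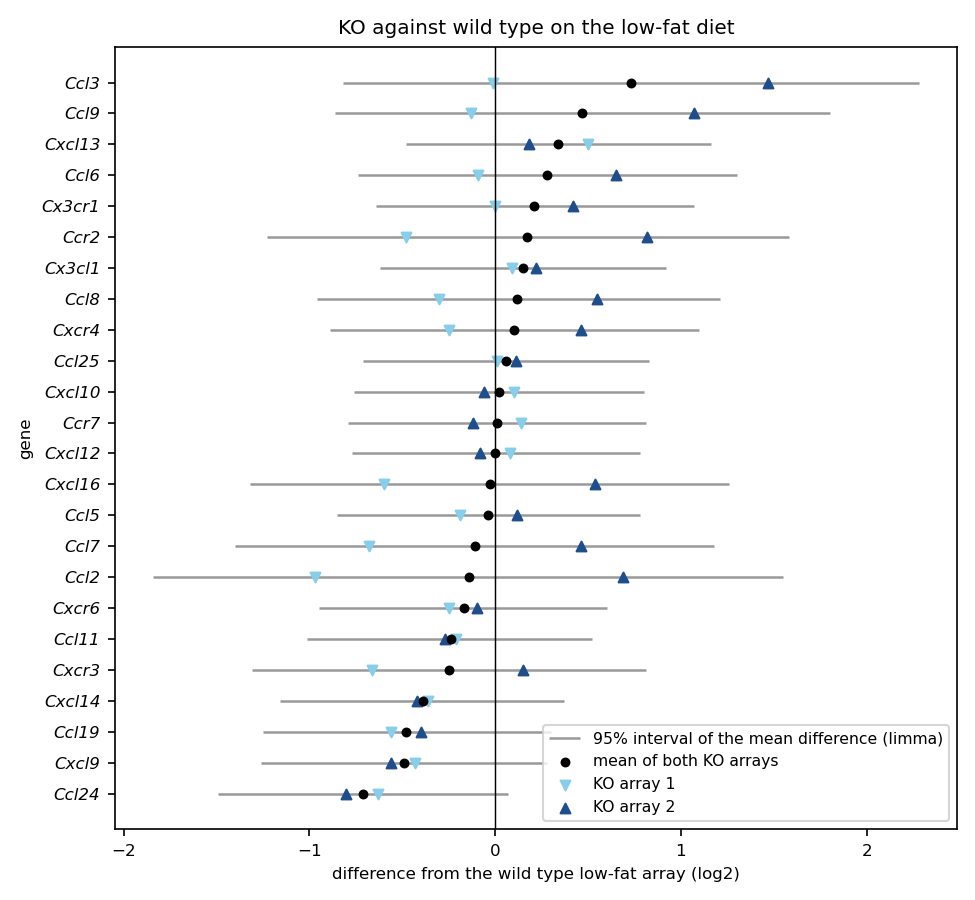
Difference from WT low-fat (horizontal axis, log2) for the 24 members above the filter (vertical axis), on KO array 1 and KO array 2 (triangles), with the mean of both (black points) and its 95% interval from limma (grey lines). Every interval crosses 0, and for Ccl2, Ccl7, Cxcl16 and Ccr2 the triangles lie on opposite sides of 0.

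The remaining chemokines and receptors were taken from lists drawn up beside the members. Of 13 other ligands, 9 were measured and 4 passed the filter, with 0 past the limma threshold, 0 as much as 1.5-fold higher with the high-fat diet and 1 lower, against the shares of tested genes given above. That gene was Ppbp, a platelet chemokine, at 8.02 on WT low-fat, 7.15 on WT high-fat, 7.20 on KO array 1 and 6.84 on KO array 2. Of 11 other receptors, 10 were measured and 1 passed the filter, Ccrl2, at 6.04, 6.52, 6.19 and 5.97.

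The atypical receptors take up chemokines without G protein signalling, and 3 of 4 were measured and passed the filter. Ackr3, which scavenges CXCL12, was at 7.67 on WT low-fat, 7.25 on WT high-fat, 7.18 on KO array 1 and 7.21 on KO array 2. Ackr2, which scavenges inflammatory CC chemokines on lymphatic vessels, was at 7.12, 6.83, 6.68 and 6.46. Both were highest on WT low-fat, and 0 of 3 passed the limma threshold.

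Genes that carry the signal inside leukocytes were in part higher on the same arrays as the CC ligands. Of 18 signalling genes, 17 were measured and passed the filter, with a median diet difference of 0.47. Of these 17, 7 were at least 1.5-fold higher on WT high-fat, against 7.72% of tested genes, and 0 lower, against 3.82%. Rgs1, which ends G protein signals in immune cells, was at 5.14 on WT low-fat, 8.98 on WT high-fat, 5.11 on KO array 1 and 8.47 on KO array 2. Dock2, which drives leukocyte migration, was at 8.07, 9.07, 7.44 and 8.94, and Pik3r5, a regulatory subunit of the leukocyte kinase PI3K gamma, at 6.54, 7.97, 6.32 and 7.81. In the KO pair 6 of 17 were at least 1.5-fold higher on KO array 2, against 14.8% of tested genes. For KO against wild type, 0 of 17 passed the limma threshold, against 0.0443% of tested genes.

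The inducers of chemokine genes differed less. Of 22 cytokines, toll-like receptors and transcription factors, 20 were measured and 13 passed the filter, with a median diet difference of 0.13. Of these 13, 0 were at least 1.5-fold higher with diet, against 7.72% of tested genes, and 0 lower, against 3.82%. Tnf, the cytokine that switches on Ccl2 and Ccl3, was below the filter on every array, between 4.15 and 5.27. None of the 13 passed the limma threshold.

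Most macrophage markers were higher on the same arrays as the 7 genes. In bulk tissue, fewer cells of a type and less RNA per cell cannot be told apart. All 15 macrophage markers passed the filter, and 9 were at least 1.5-fold higher on WT high-fat, against 7.72% of tested genes. On KO array 2, 11 were as far above KO array 1, against 14.8% of tested genes. Their differences ran from −0.22 to 1.52 with diet and from −0.05 to 1.75 in the KO pair, with medians of 0.71 and 0.88. Their summed intensity was 13085 on WT low-fat, 23017 on WT high-fat, 10587 on KO array 1 and 20853 on KO array 2. Adgre1 (F4/80), the defining marker, was at 8.83, 10.22, 8.23 and 9.95. The 10 measured genes of CD11c-positive or lipid-associated macrophages summed to 14246, 26440, 12945 and 22971, with Itgax (CD11c) at 6.43, 9.45, 5.72 and 8.72. Lpl was the brightest of these 10, between 13.16 on KO array 1 and 13.36 on WT high-fat. Its diet difference was 0.07, and it weighs most in these sums. No defining marker of either list was below the filter. The part of macrophage number in the chemokine differences was not tested.

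The medians of the lipid-associated list were 2.27 with diet and 2.26 in the KO pair, above the difference of every member in either comparison. Beside the lower medians of the general macrophage markers, the members stood at varied distances. The diet difference of Ccl3 exceeded that median by 0.89, that of Ccl9 by 0.41, that of Ccl2 by 0.31 and that of Ccl7 by 0.21. Those of Ccr2 (0.03), Cxcr4 (−0.03) and Cxcl16 (−0.05) were level with it. In the KO pair, Ccl2 exceeded the macrophage median by 0.78, Ccl3 by 0.61, Ccr2 by 0.42, Ccl9 by 0.32, and Ccl7 and Cxcl16 each by 0.26, and Cxcr4 lay below it by a difference of −0.17. These are ratios within arrays and show unequal differences only.

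Markers of other cell types had smaller medians or another order of arrays. Dendritic cell markers, 5 of 8 above the filter, had medians of 0.06 with diet and 0.60 in the KO pair. All 8, with those below the filter, had summed intensities of 971, 1047, 837 and 1202 in the order used above. Monocyte markers, with 3 of the 4 measured above the filter, had medians of 0.10 and 0.88. All 4 measured summed to 1503, 1445, 2143 and 1616. The 3 above the filter were split in the KO pair. On KO array 2, 2 were at least 1.5-fold higher and 1 lower, against 14.8% and 4.45% of tested genes. The lower gene, Plac8, was at 8.33, 6.49, 10.38 and 7.32, and F13a1, among the higher, at 9.67, 9.91, 9.18 and 10.06. Progenitor and fibroblast markers, 10 of 11 measured, had medians of 0.36 and 0.62 and summed to 12672, 15140, 10481 and 14653. These sums ranked the arrays as those of the macrophage markers did. Endothelial markers, 8 of 8, had medians of −0.14 and 0.00 and adipocyte markers, 9 of 10, medians of −0.02 and 0.06. Smooth muscle and pericyte markers, 8 of 8, had medians of −0.18 and −0.85. Their summed intensity was highest on KO array 1, at 5670, 5652, 9486 and 5381, but not every marker was. On that array their differences from WT low-fat ran from −0.52 to 2.98. There, 4 of 8 were at least 1.5-fold higher, against 1.93% of tested genes. Mesothelial markers, 8 of 8, had medians of −0.32 and 0.77 and summed to 2491, 1749, 2193 and 2124. Their part in the chemokine differences was not tested.

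**Figure D5:**
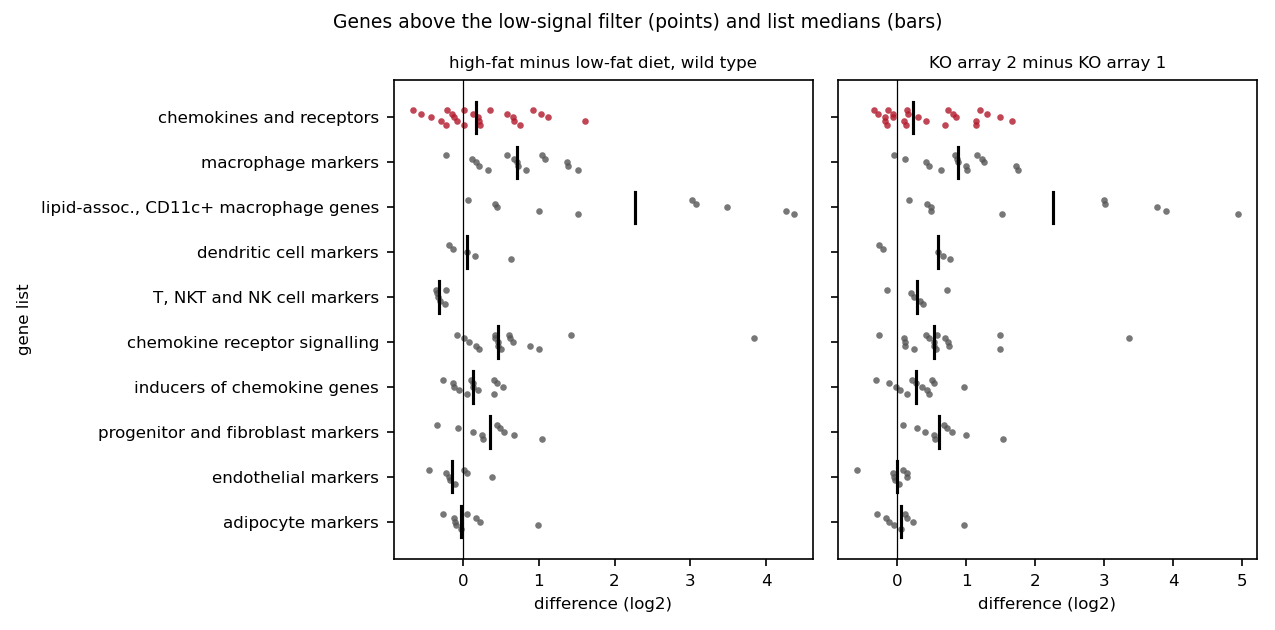
Log2 difference (horizontal axes) of each gene above the filter (points) with the list median (black bars) for the members (red) and 9 other lists, between the diets in wild type fat (left) and between the KO arrays (right). The 24 members spread from −0.66 to 1.61 with diet, around a median of 0.17, and the macrophage markers around 0.71.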

How the data were processed

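RNA was hybridized to whole-transcript gene arrays, 100 ng of pooled RNA per array. The authors deposited linear intensities, 1 for each probe set, from 5.71 to 20092. RMA and R 2.15.0 are named in the submitters' processing notes; for the array annotation, a genome build is not given in the sources used here. Since the tests had been planned for log2 values, the log2 of each deposited intensity was taken. Of 35556 probe sets, 21218 had 1 symbol in the platform annotation, 1881 several and 12457 none listed; only the first kind was used. Entrez IDs of 21185 matched the RefSeq gene table.

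Groups followed the sample titles. KO was compared with wild type on the low-fat diet with limma 3.58.1 (R 4.3.3), 1 mean per group over all 4 arrays, eBayes without trend, two-sided, Benjamini-Hochberg over 11292 genes. The KO pair gave the 1 residual degree of freedom, beside 4.62 prior ones, so single arrays were assumed to vary like that pair; the number of arrays limits the precision. The steps were checked on simulated data. Other comparisons have 1 array a side and are described by size, at 1.5-fold. Members and lists were chosen with earlier results of these data known. All 35 members are named, and members above the filter are given on each array. Other lists are given by counts and at most 4 genes, the defining markers and those at least 2-fold apart. Ackr2, Ackr3, Ccrl2, Klrb1c, Ncr1 and Lpl were named after their values were seen. The joint count of diet and KO pair was added after seeing the data. Promoter letters are RefSeq's (GRCm38.p6), with a window for 26 members. Figures used matplotlib 3.10.9.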

Additional observations from a re-analysis of the deposited data

How the results depend on the processing

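The count of members past the limma threshold for KO against wild type was 0 under each alternative: no low-signal filter, a filter at the 60th percentile, the mean of probe sets, quantile normalization, centred arrays, an intensity trend and a threshold of 0.1. With the 60th percentile filter, which left 12 members, 4 stood at least 1.5-fold higher with high-fat feeding (7.51% of genes at that filter) and 0 lower (2.84%), 6 were higher on KO array 2 than on KO array 1 (16.1%), and 4 in both (6.47%). Members lower on the high-fat diet numbered 2 after quantile normalization (4.28% of genes) and 2 after centring (4.92%), and 0 were at least 1.5-fold from wild type the same way on the KO arrays (1.35% and 1.17% of genes). At 2-fold, 3 members were higher (2.43% of genes) and 0 lower (1.39%) with diet, 6 higher in the KO pair (4.11%), 3 in both (1.77%) and 0 apart on both KO arrays (0.381%). With 1 KO array left out, 5 to 6 members were at least 1.5-fold from wild type on the other (6.95% of genes on KO array 1, 10.1% on KO array 2). Leaving out 1 KO array turned the sign of the KO minus wild type difference for 13 of 24 members. A turn occurs where the KO arrays lie on opposite sides of WT low-fat, as they did for 49.7% of tested genes. Such turns are thus not particular to the members. The difference of Ccl2 went from −0.14 to 0.69 without KO array 1. Without KO array 2, that of Ccl3 went from 0.73 to −0.01, that of Ccl9 from 0.47 to −0.13 and that of Ccr2 from 0.17 to −0.48. Small KO minus wild type differences turned sign for Ccl7 (0.00 after centring), Ccl5 (0.01 after quantile normalization, 0.07 after centring), Cxcl16 (0.08 after centring) and Ccl25 (−0.09 as the mean of its probe sets); the cause was not tested. Centring also turned the diet differences of Ccl19 and Cx3cl1, from 0.02 to −0.05 each. No paired analysis was possible because the wild type groups have 1 array each and share no replicate numbers with the KO pair. Signal over background limits the 11 members below the filter.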
